A study of Mus musculus with 8 samples.

Results

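The genes described here are 4 genes of the Hoxa cluster (Hoxa5, Hoxa7, Hoxa9 and Hoxa10) and 5 genes of the TALE homeodomain class (Meis1, Meis2, Pknox1, Pbx2 and Pbx3). They were chosen by name, and all 9 were among the 34199 genes counted. Counts were recorded for 8 of them in at least 1 library, and 5 (Hoxa9, Meis1, Pknox1, Pbx2 and Pbx3) passed the filter on low counts, as did 13080 genes in all. The cells were iGMPs, mouse granulocyte-macrophage progenitors of C57Bl/6 origin with a Lys-GFP reporter, immortalised by HOXA9 joined to the hormone-binding part of a mutant estrogen receptor, so that HOXA9 acts only while estradiol is present. There were 4 groups of 2 RNA-seq libraries, and every group carried the fusion and the reporter. Uninduced cells were taken at 0 h, with estradiol at 150 ng/ml. Cells of the CAF-1 OFF group kept estradiol and received 500 µM IPTG for 48 h, which switches on a short hairpin RNA against Chaf1b, a subunit of the histone chaperone CAF-1. IPTG-treated control cells were given IPTG for 48 h with estradiol, and their labels state neither its concentration nor which vector they carried, while the study's methods name a control vector with a stuffer insert for IPTG induction. HOXA9 OFF cells were kept for 48 h without estradiol, which inactivates the fusion protein and starts neutrophil differentiation. The hairpin lines were clonal. The study describes its RNA-seq tracks as coming from independent sub-clones, and the labels do not say whether a replicate number marks a sub-clone, so p-values measure the spread between these libraries only.

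HOX proteins are homeodomain transcription factors whose genes lie in clusters, and those at the HOXA9 end of the Hoxa cluster are active in early blood progenitors and shut off as myeloid cells mature. On DNA they bind with partners of the TALE class, which carry a homeodomain with 3 extra amino acids. PBX proteins bind DNA next to HOX proteins, while MEIS proteins and PREP1 (the product of Pknox1) bind PBX and help to bring it into the nucleus. HOXA9 and MEIS1 together are a known driver of myeloid leukaemia, and PBX3 is a frequent partner of theirs.

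Each library held 14044284 to 22423837 counts on genes, and 3 counts, the limit that a count of 0 allows, corresponded to 0.128 to 0.212 CPM (counts scaled to a library size that TMM had adjusted). These limits cover counting error only. Chaf1b, the target of the hairpin, was at 96.7 and 100 CPM in the uninduced libraries, 18.7 and 9.72 CPM in CAF-1 OFF, 95.05 and 102 CPM in the IPTG-treated control and 48.3 and 41.0 CPM in HOXA9 OFF, lowest where the hairpin was on. The IPTG-treated control replicate 1 stood apart in 1 respect, with 14.6% of its reads assigned to no counted feature, against 5.30% to 7.79% in the others. Progenitor markers (7 of 7 counted in every library) summed to 10490 to 16080 CPM in the 6 libraries with estradiol and to 8233 and 5973 CPM in HOXA9 OFF. Neutrophil markers (8 of 8 counted in every library) summed to 59.0 to 71.3 CPM in the uninduced and IPTG-treated control libraries, 224 and 385 CPM in CAF-1 OFF, and 10330 and 7153 CPM in HOXA9 OFF. Megakaryocyte markers summed to 25.5 to 31.2 CPM in both control groups, 192 and 221 CPM in CAF-1 OFF and 133 and 195 CPM in HOXA9 OFF. Erythroid markers summed to 4.83 to 7.70 CPM in both control groups, 15.8 and 15.5 CPM in CAF-1 OFF and 22.8 and 12.7 CPM in HOXA9 OFF. Stromal markers summed to 15.4 to 26.6 CPM in both control groups, 29.9 and 43.4 CPM in CAF-1 OFF and 9.11 and 11.6 CPM in HOXA9 OFF, with Dcn at 0 in every library, and lymphoid markers to at most 67.3 CPM with Cd3e at 0 in every library. In bulk RNA, fewer cells of a type and less RNA per cell cannot be told apart.

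Upstream sequence is shown for a member that was transcribed and varied between groups, Meis1, and for Hoxa5 and Hoxa10, which lie to either side of Hoxa9 and had almost no counts. Each run is the 250 bases before the RefSeq start (GRCm38.p6), 5′ to 3′ on the gene's strand. On the gene's own chromosome of mm9 and in that orientation, each matched exactly 1 time, outside the annotated gene. Other chromosomes were not searched. Capitals mark CpG dinucleotides, the sites of DNA methylation, which are dense at many promoters of developmental genes.
Meis1, chr11:18918973-18919222, minus strand: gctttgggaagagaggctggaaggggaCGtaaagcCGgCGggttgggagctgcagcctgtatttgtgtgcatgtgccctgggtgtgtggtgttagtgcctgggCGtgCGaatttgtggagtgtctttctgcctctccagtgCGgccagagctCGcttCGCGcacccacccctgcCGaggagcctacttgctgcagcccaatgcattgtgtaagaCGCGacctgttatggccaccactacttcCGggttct
Hoxa5, chr6:52154587-52154836, minus strand: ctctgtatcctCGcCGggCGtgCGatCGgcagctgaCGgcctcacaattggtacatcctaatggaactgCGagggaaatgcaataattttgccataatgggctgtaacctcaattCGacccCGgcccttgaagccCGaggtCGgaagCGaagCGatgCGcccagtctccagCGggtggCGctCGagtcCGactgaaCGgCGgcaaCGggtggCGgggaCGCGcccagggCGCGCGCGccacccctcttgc
Hoxa10, chr6:52190854-52191103, minus strand: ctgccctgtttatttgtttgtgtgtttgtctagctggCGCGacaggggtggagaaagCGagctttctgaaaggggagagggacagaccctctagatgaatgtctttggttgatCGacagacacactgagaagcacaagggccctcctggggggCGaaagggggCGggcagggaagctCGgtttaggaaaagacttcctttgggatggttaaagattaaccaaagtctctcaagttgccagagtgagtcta
The Meis1 run held 13 CpGs, that of Hoxa5 28 and that of Hoxa10 7. The table had 8 entries for 7 of the members (none for Pknox1 or Pbx3), and 7 of the 8 were above the median of 6 CpGs over 32851 promoters. A second Hoxa10 start had 20, Pbx2 had 27, Hoxa7 and Meis2 had 7 each, and Hoxa9 had 3. The 3 windows printed lie outside annotated genes on mm9, and the other 5, those of Meis2, Hoxa7, Hoxa9, the second Hoxa10 start and Pbx2, overlap one. The core of the MEIS and PREP motif, TGACAG, searched on both strands, was in 0 of the 8 windows and in 15.9% of all promoters. The joint PBX and HOX motif TGATTTAT (0.837% of all promoters) and the PBX motif TGATTGAT (0.67%) were in 0 of the 8 as well. The CCAAT box, CCAAT on either strand, was in 4 of the 8 (Meis2, Hoxa5, the second Hoxa10 start and Meis1) and in 33.9% of all promoters. These are letter matches in a short window only.

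Within the Hoxa cluster, reads fell on Hoxa9 and almost nowhere else. Hoxa9 (mm9 chr6:52173099-52181088, minus strand) had 5267 and 5488 counts in the uninduced libraries, 4964 and 4796 in CAF-1 OFF, 4168 and 3844 in the IPTG-treated control, and 8868 and 9068 in HOXA9 OFF. Hoxa5 (chr6:52151753-52154586), which lies on the side of the cluster that is used in anterior tissues, had 3 counts, all in uninduced replicate 2. Hoxa7 (chr6:52164490-52171853), the nearest counted Hox gene on that side, had 1 and 2 counts in the uninduced libraries, 0 and 2 in CAF-1 OFF, 4 and 2 in the IPTG-treated control and 0 in both HOXA9 OFF libraries. Hoxa10 (chr6:52181196-52190853), the neighbour on the other side, had 0 of 153387060 counts over the 8 libraries, which allows up to 0.0196 CPM. No group had more than a few reads of these 3 neighbours, and none of them was high enough to be tested or given a fold change.

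The rest of the cluster showed the same contrast. Between the ends of Hoxa2 and Hoxa13 (chr6:52112350-52210874, 98.5 kb), 16 counted features other than Hoxa9 summed to 19 counts over 8 libraries, and 10 of them had 0 in every library. The highest count of any of them in 1 library was 4. Hoxa9 itself summed to 46463 counts. The 9 other Hoxa genes examined had 18 counts, and the 37 Hox genes of the 4 clusters examined beside Hoxa9 had 45. Of those 37 genes, 21 had 0 in every library and 35 never exceeded 3 counts. Hoxa5, Hoxa7 and Hoxa10 together had 1 and 5 counts at 0 h, 0 and 2 in CAF-1 OFF, 4 and 2 in the IPTG-treated control and 0 and 0 in HOXA9 OFF, so that a change of these genes between groups was not detectable at this depth. Of the genes outside the cluster, Evx1, beyond Hoxa13, had 0 counts in every library, whereas Skap2 and Snx10, on the side of Hoxa2, were expressed. Skap2, an adaptor of blood cells, was at 137 and 123 CPM at 0 h and rose in HOXA9 OFF to 321 and 326 CPM (log2 fold change 1.31 ± 0.10 SE, FDR = 3.21e-05). Snx10, an endosomal sorting protein, rose in HOXA9 OFF (0.93 ± 0.12, FDR = 0.000413) and fell by 0.71 on the log2 scale in CAF-1 OFF (± 0.12, FDR = 0.0109), a call lost without uninduced replicate 2 or CAF-1 OFF replicate 2 (up to FDR = 0.0984).

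**Figure D1:**
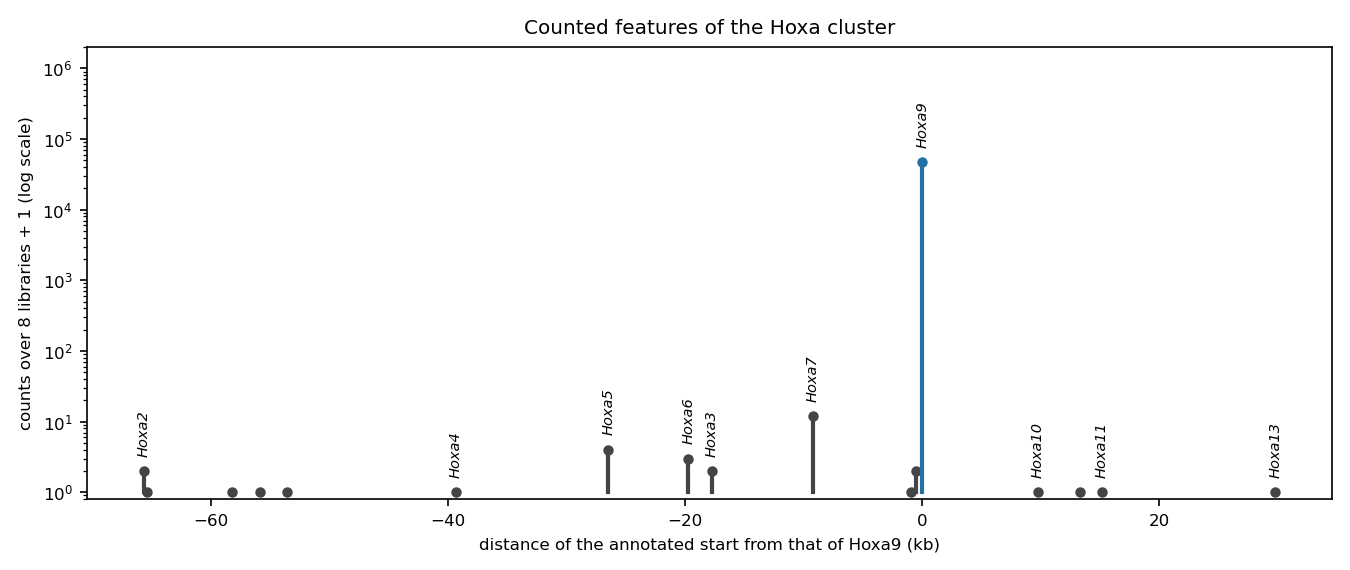
Counts over all 8 libraries plus 1 (vertical axis, log scale) for each of the 17 counted features between the ends of Hoxa2 and Hoxa13 against the distance of its annotated start from that of Hoxa9 in kb (horizontal axis). Hoxa9 (blue) stands at 46463 counts and every other feature (grey) at 11 or fewer.

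The Hoxa9 counts include reads of the HOXA9 fusion, which is built into every cell, and the study describes them as coming from it and not from the gene's own locus. Coverage along the gene was not examined here. Esr1, the mouse gene of the estrogen receptor whose hormone-binding part forms the other end of the fusion, was counted beside it. Esr1 had 2352 and 2782 counts in the uninduced libraries, 2468 and 2328 in CAF-1 OFF, 1947 and 1912 in the IPTG-treated control, and 4504 and 4515 in HOXA9 OFF. For every Hoxa9 count there were from 0.447 to 0.508 Esr1 counts, in all 8 libraries. Of 9838 other genes with a mean of at least 2 on the log2 CPM scale, Esr1 had the second smallest distance from Hoxa9 over the 8 libraries, with a root mean square difference of 0.0602 on the centred log2 scale. The nearest was Tet2, a dioxygenase that oxidises methylcytosine (0.0455), and Elac1, Chm and Fmnl3 followed (0.0646 to 0.0814). Whether the Esr1 reads come from the fusion was not tested, and the sources used here do not say from which species the receptor part was taken.

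**Figure D2:**
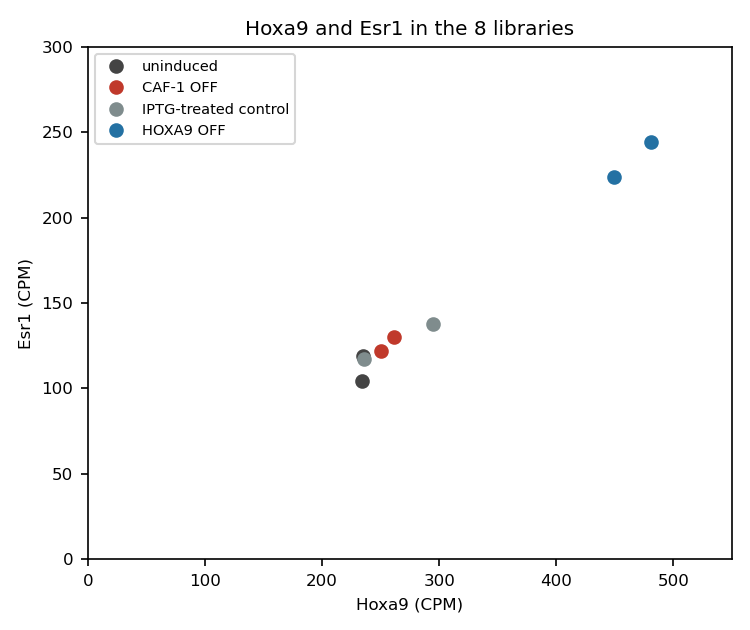
Level of Esr1 against that of Hoxa9 in CPM, 1 point per library, coloured by group. The 6 libraries with estradiol lie together at 234 to 294 CPM of Hoxa9, and the HOXA9 OFF libraries lie apart at 449 and 481 CPM, at a like ratio of the genes.

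Withdrawal of estradiol, which inactivates the HOXA9 protein, went with more Hoxa9 RNA and not with less. Hoxa9 was at 234 and 235 CPM at 0 h and at 481 and 449 CPM in HOXA9 OFF, so that the groups did not overlap. This was 1.98-fold higher (log2 fold change 0.99 ± 0.12 SE, edgeR FDR = 0.00032), and Esr1 rose alike (1.07 ± 0.12, FDR = 0.000189). In CAF-1 OFF, Hoxa9 was at 261 and 251 CPM, and its log2 fold change of 0.13 did not pass the test (95% interval -0.16 to 0.41, FDR = 0.492). The IPTG-treated control was at 294 and 236 CPM and covered the range of CAF-1 OFF. Hoxa9 RNA was lower in CAF-1 OFF than in HOXA9 OFF (-0.86 ± 0.12, FDR = 0.000839).

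Among all genes tested, calls upward made up 10.5% and calls downward 3.5% in CAF-1 OFF against uninduced cells, and 25.2% and 22.1% in HOXA9 OFF against uninduced cells. Of the 5 members tested, 1 was higher (Pbx3) and 1 lower (Meis1) in CAF-1 OFF, and 2 were higher (Hoxa9 and Pbx2) and 1 lower (Meis1) in HOXA9 OFF. Their median log2 fold change was 0.13 in CAF-1 OFF and 0.09 in HOXA9 OFF, beside medians of 0.013 and 0.007 over all genes. Hoxa9, whose counts include the fusion, is among the 5, and the CAF-1 OFF median is its value. Both comparisons share the uninduced libraries, which are labelled 0 h where the other groups are labelled 48 h. With the IPTG-treated control in their place, where calls upward made up 24.6% of genes and calls downward 21.8%, HOXA9 OFF gave the same 3 members, Hoxa9 (log2 fold change 0.81), Pbx2 (0.66) and Meis1 (-2.50). Against the IPTG-treated control, where calls upward in CAF-1 OFF made up 9.56% of genes and calls downward 3.2%, the same genes were called, Pbx3 higher and Meis1 lower. In the IPTG-treated control against uninduced cells, edgeR called 0 members and 0% of genes in either direction (100 genes had an unadjusted p under 0.05, and DESeq2 called 5 genes, none of them a member). Between CAF-1 OFF and HOXA9 OFF, where 22.2% of genes were higher and 21.4% lower in CAF-1 OFF, 2 members were higher in CAF-1 OFF (Meis1 and Pbx3) and 2 lower (Hoxa9 and Pbx2). Scaling by library size alone moved the median of all genes to -0.182 in HOXA9 OFF against uninduced cells and to 0.27 in CAF-1 OFF against HOXA9 OFF. The share of calls that were higher then went from 53.3% to 42.3% and from 50.9% to 65.7%.

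**Figure D3:**
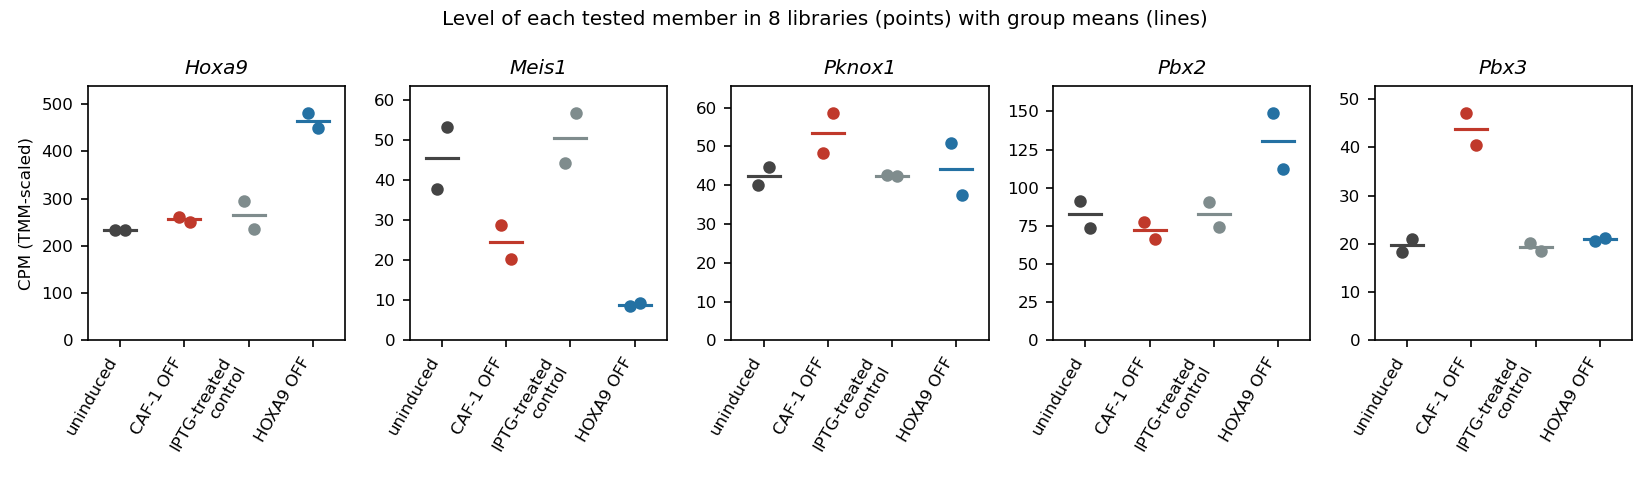
Level in CPM on TMM-scaled library sizes (vertical axes, from 0, a scale of its own per gene) of the 5 members that were tested, in the 2 libraries of each group (points) with the group mean (line). Meis1 is lowest in HOXA9 OFF (8.57 and 9.22 CPM), Pbx3 is highest in CAF-1 OFF (47.1 and 40.6 CPM), and Hoxa9 and Pbx2 are highest in HOXA9 OFF.

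Meis1 (chr11:18780433-18918961, minus strand), which encodes the MEIS partner most tied to leukaemia, had the largest change of the members. Its level was 37.7 and 53.2 CPM at 0 h, 44.1 and 56.6 CPM in the IPTG-treated control, 28.7 and 20.2 CPM in CAF-1 OFF, and 8.57 and 9.22 CPM in HOXA9 OFF. The levels thus fell into 3 ranges that did not overlap, with both control groups in the upper one. In HOXA9 OFF, Meis1 was 5.11-fold lower than in uninduced cells (log2 fold change -2.35 ± 0.25 SE, FDR = 0.000142). In CAF-1 OFF it was 1.86-fold lower than in uninduced cells (-0.89 ± 0.23, FDR = 0.0333) and 2.06-fold lower than in the IPTG-treated control (-1.04 ± 0.23, FDR = 0.0238). The level in CAF-1 OFF was 2.75-fold above that in HOXA9 OFF (1.46 ± 0.24, FDR = 0.00177), so the fall under CAF-1 loss was the smaller of both by a direct test.

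The call of Meis1 in CAF-1 OFF depended on single libraries, whereas its direction did not. Against uninduced cells the log2 fold change was -1.13 without uninduced replicate 1 (FDR = 0.0698), -0.63 without uninduced replicate 2 (FDR = 0.155) and -0.67 without CAF-1 OFF replicate 2 (FDR = 0.209), and over 15 alternatives it ran from -1.19 to -0.63 with FDR from 0.00408 to 0.209. Against the IPTG-treated control it was -0.81 without CAF-1 OFF replicate 2 (FDR = 0.166), -1.24 without IPTG-treated control replicate 1 (FDR = 0.0672) and -0.86 without IPTG-treated control replicate 2 (FDR = 0.138), within FDR of 0.00071 to 0.166 over the 15. In HOXA9 OFF the call was made under all 16 alternatives (log2 fold change -2.58 to -2.08). The summed neutrophil markers moved opposite to Meis1. They were at 59.0 to 71.3 CPM where it was highest, 224 and 385 CPM where it was intermediate and 10330 and 7153 CPM where it was lowest. The sum of the progenitor markers was lowest in HOXA9 OFF. Of those 7 markers, 3 were lower there (Cd34, Kit and Ctsg), 1 was higher (Ms4a3) and 3 were not called. Their part in the result was not tested. The gene Gm16140 lies across Meis1 on the opposite strand and had 0 counts.

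The genes whose pattern lay nearest to that of Meis1 were Bbs12, Gpt2, Sigirr, Trmt61a and Shmt2, with root mean square differences from 0.181 to 0.201 over the 8 libraries. They were chosen by likeness to Meis1 in these same libraries, so that a shared order of the groups follows from the choice. All 5 were lower in CAF-1 OFF than in both control groups and lowest in HOXA9 OFF. Shmt2, the mitochondrial serine hydroxymethyltransferase, was at 1035 and 986 CPM at 0 h, 979 and 1089 CPM in the IPTG-treated control, 631 and 531 CPM in CAF-1 OFF, and 168 and 231 CPM in HOXA9 OFF. Sigirr, an inhibitor of interleukin-1 receptor signalling, was at 187 and 181 CPM at 0 h, 121 and 87.0 CPM in CAF-1 OFF and 33.1 and 32.3 CPM in HOXA9 OFF.

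Of the other MEIS and PREP genes, Meis2 had too few counts to show a change and Pknox1 was not called. Meis2 (chr2:115688800-115891575), the paralogue of Meis1, had 2 counts in CAF-1 OFF replicate 2, 1 count in IPTG-treated control replicate 1 and 0 counts in the other 6 libraries. Pknox1 (chr17:31701718-31744638) was at 40.0 and 44.8 CPM at 0 h, 48.4 and 58.6 CPM in CAF-1 OFF, 42.7 and 42.3 CPM in the IPTG-treated control, and 51.0 and 37.5 CPM in HOXA9 OFF. No comparison called it. Set against uninduced cells, its log2 fold change in CAF-1 OFF was 0.34 (95% interval -0.06 to 0.73, FDR = 0.193) and that in HOXA9 OFF 0.06 (-0.33 to 0.45, FDR = 0.783).

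The PBX genes moved in different conditions. Pbx3 (chr2:34026977-34228660, minus strand) was at 18.3 and 21.1 CPM at 0 h, 20.3 and 18.5 CPM in the IPTG-treated control, 20.6 and 21.3 CPM in HOXA9 OFF, and 47.1 and 40.6 CPM in CAF-1 OFF. Both CAF-1 OFF libraries thus lay far above the other 6, which were within 18.3 to 21.3 CPM. Pbx3 rose 2.23-fold in CAF-1 OFF against uninduced cells (log2 fold change 1.16 ± 0.14 SE, FDR = 0.00457) and 2.27-fold against the IPTG-treated control (1.18 ± 0.14, FDR = 0.00476). In HOXA9 OFF its log2 fold change was 0.09 (95% interval -0.24 to 0.42, FDR = 0.609), and the direct comparison of CAF-1 OFF with HOXA9 OFF gave 1.06 ± 0.14 (FDR = 0.000618). The call against uninduced cells was narrowly lost without uninduced replicate 1 (1.05, FDR = 0.0525), and that against the control without IPTG-treated control replicate 2 (1.11, FDR = 0.0537), while the other 14 alternatives of each made it (lowest FDR 7.1e-08 and 6.3e-08).

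Pbx2 (chr17:34728211-34734345, plus strand) was at 91.5 and 73.5 CPM at 0 h, 77.3 and 66.6 CPM in CAF-1 OFF, 90.8 and 74.2 CPM in the IPTG-treated control, and 149 and 112 CPM in HOXA9 OFF. The HOXA9 OFF libraries were above the other 6, which overlapped among groups. Pbx2 rose 1.58-fold in HOXA9 OFF against uninduced cells (log2 fold change 0.66 ± 0.18 SE, FDR = 0.0153), just over the threshold of 1.5-fold. That call was lost under scaling by library size alone (0.47, FDR = 0.0444), without uninduced replicate 2 (0.51, FDR = 0.104) and without HOXA9 OFF replicate 1 (0.44, FDR = 0.075), with FDR from 0.000753 to 0.104 over 16 alternatives. In CAF-1 OFF it was not called (-0.20, 95% interval -0.62 to 0.23, FDR = 0.472). The direct comparison of CAF-1 OFF with HOXA9 OFF (-0.86 ± 0.18, FDR = 0.00551) was called under all 15 alternatives. The exons of Pbx2 overlap those of Gpsm3 on the same strand by 227 bases, and Gpsm3 counts moved as well, from 45.5 and 36.2 CPM at 0 h to 188 and 149 CPM in HOXA9 OFF (2.04, FDR = 6.51e-05), and the part of this overlap in the result was not tested.

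**Figure D4:**
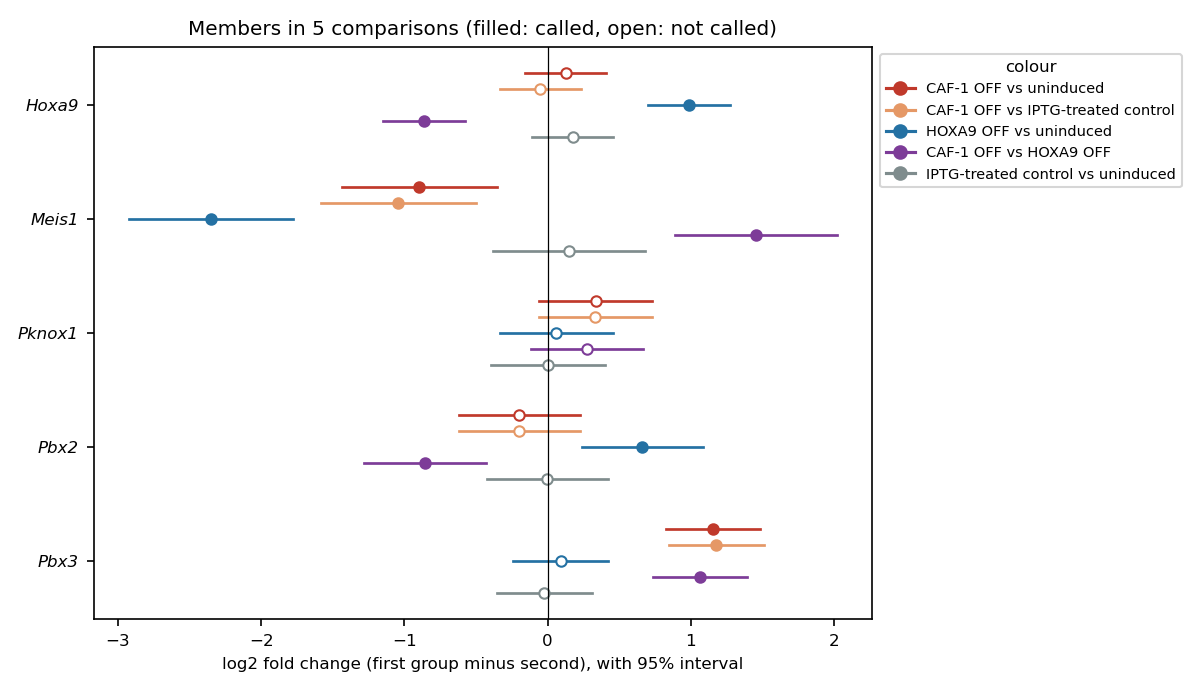
Log2 fold change (horizontal axis, first group minus second) with its 95% interval for the 5 tested members (rows) in 5 comparisons (colours), filled where called and open where not. Meis1 reaches -2.35 in HOXA9 OFF against uninduced cells, and Pbx3 lies at 1.16 in CAF-1 OFF against uninduced cells and at 0.09 in HOXA9 OFF against uninduced cells.

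Per length, the order of the members was the same in both control groups, but the place of Meis1 depended on the length used. On CPM per kb of annotated exon, the uninduced means were 67.1 ± 0.07 for Hoxa9, 22.7 ± 3.5 for Pbx2, 10.1 ± 0.79 for Pknox1, 6.15 ± 1.5 for Meis1 and 3.08 ± 0.31 for Pbx3 (SD, n = 2), and no neighbours in this order overlapped. The IPTG-treated control had the same order. In CAF-1 OFF, Pbx3 stood above Meis1, at 7.36 and 6.34 against 3.88 and 2.73 CPM per kb. In HOXA9 OFF it did so too, at 3.22 and 3.33 against 1.16 and 1.25 CPM per kb, where Pbx3 kept the level of uninduced cells and Meis1 was lower. Hoxa9 led in every group, at 133 CPM per kb in HOXA9 OFF. Taken over its coding length alone, the Hoxa9 level was 287 CPM per kb in uninduced cells and 570 in HOXA9 OFF. MEIS1 and PREP1 can both pair with PBX. Per kb of annotated exon, the level of Pknox1 exceeded that of Meis1 in all 8 libraries. Per kb of the longest annotated transcript, a length added after the values were seen, Meis1 was above Pknox1 in both control groups, at 10.99 and 15.5 against 9.50 and 10.6 CPM per kb in uninduced cells, and below it in CAF-1 OFF (8.36 and 5.90 against 11.5 and 13.9) and HOXA9 OFF (2.50 and 2.69 against 12.1 and 8.89). Pbx3 was above Meis1 in CAF-1 OFF and in HOXA9 OFF on either length, and above Pknox1 in CAF-1 OFF on the longest transcript (16.6 and 14.3 CPM per kb).

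Of 12 other TALE genes examined, 4 were tested and 8 had too few counts. In HOXA9 OFF against uninduced cells 0 were higher and 3 lower, where 25.2% and 22.1% of all genes were (median log2 fold change -1.80, beside 0.007 over all genes). In CAF-1 OFF 0 were higher and 1 lower, beside 10.5% and 3.5% of all genes (median -0.29, beside 0.013). Tgif2, a repressor of TGF-beta targets, was at 9.3 and 9.8 CPM at 0 h and 1.2 and 1.1 CPM in HOXA9 OFF (-3.03 ± 0.26, FDR = 5.75e-05). Pbx4, a PBX gene best known from testis, was at 8.1 and 8.9 CPM and fell to 1.4 and 1.6 CPM (-2.50 ± 0.25, FDR = 0.000118). Neither was called in CAF-1 OFF, where Tgif2 was at 11.8 and 9.1 CPM and Pbx4 at 8.5 and 7.2 CPM, and both were higher in CAF-1 OFF than in HOXA9 OFF (3.16 and 2.38, FDR = 8.42e-05 and 0.000207).

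Tgif1, the paralogue of Tgif2, was lower in both treatments. It was at 78.6 and 78.8 CPM at 0 h, 77.0 and 78.2 CPM in the IPTG-treated control, 44.9 and 35.0 CPM in CAF-1 OFF (-0.98 ± 0.27, FDR = 0.0407) and 25.2 and 48.3 CPM in HOXA9 OFF (-1.10 ± 0.27, FDR = 0.00975). The CAF-1 OFF call was lost under 7 of 15 alternatives, among them each of the 6 that left out an uninduced, a CAF-1 OFF or an IPTG-treated control library (up to FDR = 0.245). The fourth gene, Irx5, was under 1 CPM in every library and was not called. Meis3, Pknox2, Mkx and the other Irx genes did not reach the filter.

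Pbxip1, which encodes a protein that binds PBX and hinders its binding to DNA, rose in both treatments. It was at 23.0 and 37.1 CPM at 0 h, 24.2 and 38.3 CPM in the IPTG-treated control, 58.3 and 83.2 CPM in CAF-1 OFF and 237 and 217 CPM in HOXA9 OFF. The rise was 7.56-fold in HOXA9 OFF (log2 fold change 2.92 ± 0.30, FDR = 0.00014) and 2.35-fold in CAF-1 OFF (1.23 ± 0.29, FDR = 0.0252), and it was smaller in CAF-1 OFF by direct comparison (-1.68 ± 0.29, FDR = 0.00203). The call in CAF-1 OFF against uninduced cells was lost without uninduced replicate 1 and without CAF-1 OFF replicate 2 (up to FDR = 0.173).

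**Figure D5:**
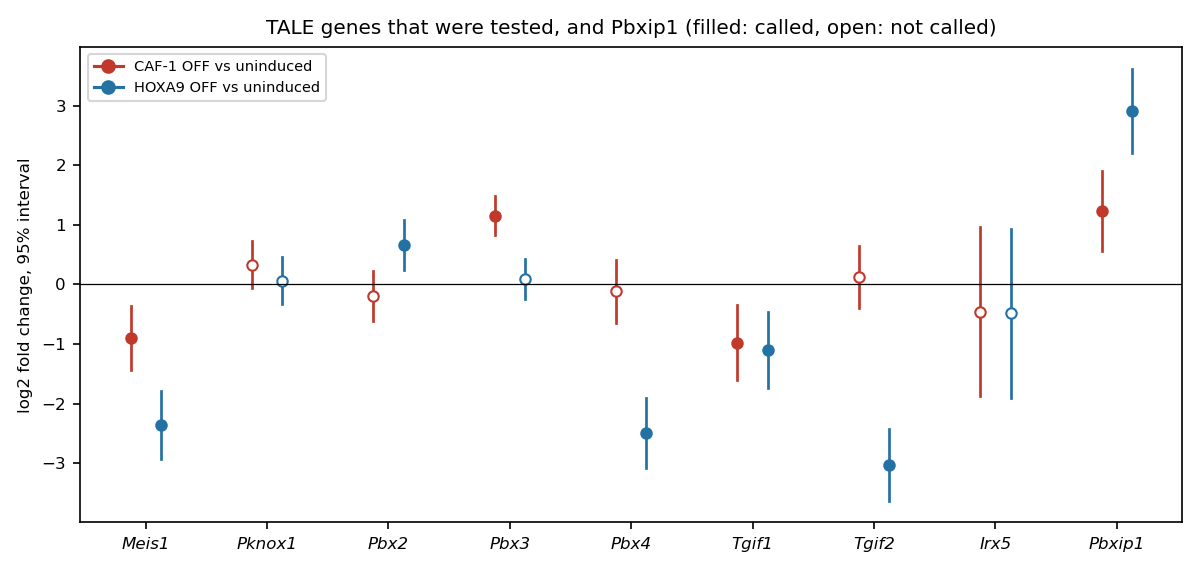
Log2 fold change against uninduced cells (vertical axis) with its 95% interval for 8 tested TALE genes and Pbxip1, in CAF-1 OFF (red) and HOXA9 OFF (blue), filled where called. In HOXA9 OFF, Meis1, Pbx4, Tgif1 and Tgif2 lie below 0 and Pbx2 and Pbxip1 above, and in CAF-1 OFF Meis1 and Tgif1 lie below and Pbx3 and Pbxip1 above.

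Of 21 counted genes known to act on the Hoxa cluster, 18 were tested. The other 3, the caudal-type factors Cdx1, Cdx2 and Cdx4, had 0, 2 and 2 counts over the 8 libraries. Of the 18, 2 were higher and 5 lower in HOXA9 OFF, where 25.2% and 22.1% of all genes were (median log2 fold change -0.45, beside 0.007 over all genes). In CAF-1 OFF 0 were higher and 1 lower, beside 10.5% and 3.5% of all genes (median -0.085, beside 0.013). The lower calls in HOXA9 OFF numbered 9 under scaling by library size alone and also grew without HOXA9 OFF replicate 1. Under library size alone, 42.3% of all genes called were higher, against 53.3% with TMM scaling. Of the H3K27 methyltransferases, Ezh2 was at 193 and 203 CPM at 0 h and 118 and 85.0 CPM in HOXA9 OFF (-0.96, FDR = 0.00115). Its paralogue Ezh1 was at 19.6 and 19.5 CPM and rose to 42.6 and 38.3 CPM (1.05, FDR = 0.000526). Kdm6b, an H3K27 demethylase, rose to 113 and 89.3 CPM from 33.4 and 44.3 CPM (1.38, FDR = 0.000362). Psip1 (-1.39), which tethers the MLL complex to chromatin, Dpy30 (-1.09) and Wdr5 (-0.69), subunits of MLL-type complexes, and Bmi1 (-1.25), a Polycomb subunit, fell in HOXA9 OFF, the call of Wdr5 being lost without HOXA9 OFF replicate 2 (-0.53, FDR = 0.0414). In CAF-1 OFF against uninduced cells the call was Bmi1 (-0.61, FDR = 0.0247), and it was lost without uninduced replicate 1, uninduced replicate 2 or CAF-1 OFF replicate 2 and under scaling by library size alone (up to FDR = 0.163). With the replicate block 2 were lower, Rbbp5 being added, as it was by the DESeq2 Wald test and by the fit of both groups alone. Against the IPTG-treated control, where 9.56% of all genes were higher and 3.2% lower, edgeR called 0 of the 18. Bmi1 had a log2 fold change of -0.54 there (FDR = 0.038), under the threshold of 1.5-fold. Rbbp5 was called lower against this control too with the replicate block, by the DESeq2 Wald test and by the fit of both groups alone. Without a filter 2 were lower against uninduced cells as well, Wdr5 being added, and without uninduced replicate 2 there was 1 higher call, Mll1. Mll1, the H3K4 methyltransferase that upholds Hoxa expression in progenitors, was at 34.2 and 69.7 CPM at 0 h and 39.8 and 37.1 CPM in HOXA9 OFF and was not called there (-0.44, FDR = 0.237), though it was lower without uninduced replicate 1.

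Of 19 tested genes reported as targets of HOXA9 and MEIS1, 6 were higher and 9 lower in HOXA9 OFF, where 25.2% and 22.1% of all genes were (median log2 fold change -0.4, beside 0.007 over all genes). In CAF-1 OFF 4 were higher and 1 lower, beside 10.5% and 3.5% of all genes (median 0.36, beside 0.013). The list was chosen with earlier results of these data known. Flt3, a growth factor receptor of progenitors, was at 245 and 349 CPM at 0 h, 316 and 216 CPM in CAF-1 OFF and 9.3 and 2.4 CPM in HOXA9 OFF (-5.68, FDR = 0.000116). Sox4 (-4.44), Hlf (-3.98) and Cd34 (-2.86), a transcription factor, a stem cell regulator and a progenitor surface protein, fell as well, as did Kit (-1.78), Cdk6 (-1.59), Myb (-1.46), Hmgb3 (-2.14) and Trib2 (-4.63). Id2 (5.26), an inhibitor of helix-loop-helix factors, Cd28 (4.6), Mef2c (3.31), Pim1 (2.52) and the chemokines Ccl3 (3.65) and Ccl4 (4.93) rose in HOXA9 OFF. The 15 calls in HOXA9 OFF were made under all 15 alternatives, but single libraries set the size of some. Without HOXA9 OFF replicate 2 and without replicate 1 the log2 fold change was 2.11 and 5.83 for Ccl4, which was at 7.65 and 101 CPM there, and 2.19 and 4.37 for Ccl3, at 62.7 and 284 CPM. It was -6.62 and -3.87 for Trib2, -5.27 and -3.94 for Sox4, and -5.00 and -6.93 for Flt3. That of Cd28 ran from 3.94 to 5.65, moving most without HOXA9 OFF replicate 2 or either uninduced library.

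In CAF-1 OFF against uninduced cells 5 of these targets were called. Against the IPTG-treated control Erg, Trib2, Mef2c and Pim1 were called higher too and 0 lower, Hmgb3 being at -0.80 (FDR = 0.0607). Of these 4 calls, Pim1 alone was made under all 15 alternatives. The higher calls numbered 1 without either IPTG-treated control library, 2 without either CAF-1 OFF library and 3 without either uninduced library, and up to 6 higher and 2 lower under others. Flt3 and Cd34 were not called against uninduced cells, with log2 fold changes of -0.16 and 0.08 (FDR = 0.823 and 0.746). Nor were Sox4 (-0.99, FDR = 0.0925) and Hlf (0.69, FDR = 0.0682). The CAF-1 OFF libraries held 57.2 and 35.9 CPM of Sox4, less than any library of both control groups (79.4 CPM or more). Without a filter and by the DESeq2 Wald test, Sox4 was called lower and Hlf higher. The fit of both groups alone also called Sox4, and the replicate block Hlf. Trib2, a pseudokinase known to promote leukaemia, was at 16.1 and 17.4 CPM at 0 h, 84.7 and 39.3 CPM in CAF-1 OFF and 0.2 and 1.1 CPM in HOXA9 OFF, so that it rose in the first treatment (1.89, FDR = 0.0287) and fell in the second. Erg, an ETS factor of blood stem cells, rose in CAF-1 OFF from 61.3 and 73.4 to 142 and 149 CPM (1.11, FDR = 0.0159), while its log2 fold change in HOXA9 OFF was -0.39 (FDR = 0.16). Both were higher in CAF-1 OFF than in HOXA9 OFF (6.52 and 1.5, FDR = 0.000149 and 0.00103). Mef2c (1.59, FDR = 0.0113) and Pim1 (2.07, FDR = 0.00242) rose in CAF-1 OFF as in HOXA9 OFF, and Hmgb3 fell (-0.86, FDR = 0.0457). Instead of 4, the higher calls numbered 1 without uninduced replicate 1, 3 without uninduced replicate 2 and 2 without either CAF-1 OFF library. Under the replicate block, without a filter and without HOXA9 OFF replicate 2, 6 were higher and 2 lower. The DESeq2 Wald test, the fit of both groups alone and that without HOXA9 OFF replicate 1 gave 5 higher and 2 lower. The calls of Erg and Trib2 were lost without any 1 of the uninduced or CAF-1 OFF libraries (up to FDR = 0.112 and 0.181), that of Trib2 also without either IPTG-treated control library and by the DESeq2 Wald test, its log2 fold change being 1.21 without CAF-1 OFF replicate 1, and that of Mef2c without uninduced replicate 1 or CAF-1 OFF replicate 2 (up to FDR = 0.0845). The call of Hmgb3 was lost under 6 alternatives, among them those without uninduced replicate 1, uninduced replicate 2, CAF-1 OFF replicate 2 or either IPTG-treated control library (up to FDR = 0.258). Of the 5 calls, Pim1 alone was made under all 15 alternatives.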

How the data were processed

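Libraries were made from total RNA of iGMPs with a directional NEBNext kit and sequenced on an Illumina instrument. Reads were aligned to mm9 with STAR and assigned to genes with HTSeq-count by the authors, as their methods state, and the raw counts were deposited by gene symbol in a file for each library. The annotation version and strand setting are not given in the sources used here. Reads that fell on no counted feature (from 5.30% to 14.6% of the reads assigned, unassigned or ambiguous) were left out.

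After filterByExpr and TMM scaling, edgeR 4.0.16 (R 4.3.3) fitted the 8 libraries together by quasi-likelihood, each group having its own mean, and p-values were adjusted by Benjamini-Hochberg over 13080 genes. Genes were called at FDR < 0.05 if they also changed 1.5-fold or more. The alternatives include DESeq2 1.42.0. Standard errors came from the F statistic, and 95% intervals from the t distribution with the test's degrees of freedom (7.63 for Meis1 and the other members). Gene positions came from GENCODE on mm9 and upstream sequences from RefSeq. The members, gene lists and tests were chosen with earlier results of these data known. Named genes were the 9 members, genes of the lists that were called or that a sentence needed, Chaf1b, and the genes nearest to Meis1 and Hoxa9 in pattern. Gpsm3 was added after its values were seen. Some genes of these families are not reported here.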

Additional observations from a re-analysis of the deposited data

How the results depend on the processing

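Each comparison was repeated with other scalings, filters, tests and subsets of libraries. Of the 380 fold changes of members under an alternative, 369 kept their side of the threshold, 11 lost the call with their direction kept, and 0 called values reversed. The losses concern Meis1 and Pbx3 in CAF-1 OFF and Pbx2 in HOXA9 OFF. With an FDR under 0.01 and a 2-fold change, the members called numbered 1 in CAF-1 OFF against uninduced cells (364 of all genes in place of 1836), 1 in HOXA9 OFF against uninduced cells (3579 in place of 6179), 1 in CAF-1 OFF against the IPTG-treated control (282 in place of 1670) and 2 in CAF-1 OFF against HOXA9 OFF (3008 in place of 5695). The DESeq2 Wald test called 5 genes in the IPTG-treated control against uninduced cells, where edgeR called 0. Leaving out 1 library at a time gave 0 to 2 members and 157 to 2191 genes of all for CAF-1 OFF against uninduced cells, and 0 to 2 members and 199 to 1965 genes in CAF-1 OFF against the IPTG-treated control. The 157 came without uninduced replicate 1 and the 199 without IPTG-treated control replicate 2, fits in which the lone library is assumed to vary like the others.

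The replicate number paired the groups only in part: the correlation of deviations between same-numbered libraries was from -0.044 to 0.475 over the 6 pairs of groups. With a replicate block, 2 members and 2123 genes of all were called for CAF-1 OFF against uninduced cells and 3 members and 6313 genes in HOXA9 OFF against uninduced cells, and no member's call changed. On raw library totals in place of TMM, 6 of 20 group means of members moved by more than the SD between libraries, Hoxa9 in HOXA9 OFF to 418.5 CPM among them. Depth limits the 4 members that were not tested, and with 2 libraries a group single libraries can decide a call.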
